A study of Mus musculus with 8 samples.

Results

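The replication and S phase genes described here are 43 genes that act in DNA replication or in the entry into S phase. They were chosen by name, with earlier results of these data known. A gene was read from the rows that carry its Ensembl identifier, provided that the row's boundary was an exon boundary of that gene in GRCm38. Its value is the sum of its transcription start events in FPKM, which is the number of fragments scaled to the length of the transcript and to the mapped fragments of the library, or of its transcription end events where their mean was higher. Of the 43 genes, 41 were among the 13081 genes with a value, and 38 were listed in all 8 samples. Start events gave the value of 32 genes and end events that of 9. Cdt1, which loads the helicase onto origins, and Gins2, a subunit of the GINS complex, had no entry. Fen1, the nuclease that trims Okazaki fragment flaps, was listed only in MG53-TG sample 1, at 9.02 FPKM. Its fitted log2 fold change of 0.83 (adjusted p = 0.357 by limma) rests on that sample alone, and Fen1 was left out of the counts below. Hence 40 genes were compared. All 41 genes with a value passed the filter on low values, a mean of at least 0.5 FPKM.

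The RNA came from intestinal crypt organoids, which are epithelial cultures grown from isolated crypts of the mouse small intestine, embedded in Matrigel and kept in IntestiCult OGM medium. The 4 WT samples were set against 4 MG53-TG samples, which overexpress MG53. MG53, encoded by Trim72, is a tripartite motif protein that acts as a ubiquitin ligase and in membrane repair. The labels name the genotypes wt and mg53-tg. The text of the study names MG53;Lgr5 for the transcriptome of its crypt organoids, while a figure legend names MG53-TG and WT mice for its organoid RNA sequencing. Whether these samples carry the Lgr5 knock-in allele is therefore not known here. The age of the mice and the promoter of the transgene are not given in the sources used here, and neither is whether the samples of a group came from separate mice or cultures. The p-values therefore measure the spread between these samples, which may be technical.

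Replication starts at origins, where the origin recognition complex, Cdc6 and Cdt1 load the Mcm2 to Mcm7 helicase in G1 phase. In S phase the kinase Cdc7, Cdc45, the GINS complex and Mcm10 switch the helicase on, and polymerases held by the Pcna clamp copy both strands. Most of these genes are transcribed at the border of G1 and S phase under E2F transcription factors. In the intestine the cells that replicate their DNA are the stem cells and the transit-amplifying cells of the crypt, and enterocytes and other mature cells have left the cell cycle.

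Most of the measured replication genes were lower in the MG53-TG organoids. The log2 fold change of FPKM + 1 was below 0 in 40 of 40 genes compared, while this held for 62.3% of the 10271 genes tested. Of the 40 genes, 26 were lower past an adjusted p of 0.05 by limma with Benjamini-Hochberg adjustment over all genes, and 0 were higher, whereas 44.7% of all genes passed, 29.2% lower and 15.5% higher. The median log2 fold change of the 40 genes was -1.18, beside -0.17 over all genes, with a range from -2.06 for Mcm7 to -0.35 for Pcna on this scale. With median-of-ratios scaling of the FPKM the median of all genes was -0.01, a shift of 0.16, the split over all genes went from 3004 lower and 1592 higher to 2101 and 2108, and 23 of the 40 genes were lower, beside 20.5% of all genes. With quantile normalization the shift was 0.12, the split 2408 and 1954, and 25 of the 40 genes were lower. In either scaling 0 of the 40 genes were higher. Without the filter on low values 18 of the 40 genes were lower, beside 3013 of 13081 genes in all. In 25 of the 40 genes every MG53-TG value lay below every WT value, as it did in 29.1% of all genes. For these 25 the exact permutation p was 0.0286, the smallest that the 70 relabellings of 4 against 4 samples can give (35 relabellings of 4 against 3 for Orc1 and Cdc7). Mcm4, Mcm6, Chaf1a and E2f1 passed limma's threshold with overlapping groups, and Orc6, Gins3 and Rrm2 did not pass it although their groups did not overlap. Since the organoids were measured in bulk, fewer replicating cells and less RNA per cell cannot be told apart.

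The 4 MG53-TG samples did not lie together. The median of the genes compared was 65.8% of the WT mean in MG53-TG sample 1, 75.7% in sample 2, 21.1% in sample 3 and 15.2% in sample 4, while over all genes the corresponding medians were 89.2%, 92.8%, 80.1% and 78.0%. In the WT samples the median of the same genes was between 91.0% and 108.6% of the WT mean. Over the 38 genes with a value in every sample, the FPKM summed to 927, 883, 822 and 842 in WT samples 1 to 4. The sums were 632, 689, 272 and 201 in MG53-TG samples 1 to 4. Sample 3 had 37 of 40 genes and sample 4 had 36 of 38 genes below 50% of the WT mean, while samples 1 and 2 had 4 and 2 such genes. Samples 3 and 4 held the lowest 2 of the 8 values in 38 of 38 genes with a value in every sample, and in 31.2% of 9965 such genes overall. Sample 4 had the lowest value in 33 of the 38 genes, and in 30.0% of the 9965 genes overall.

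**Figure D1:**
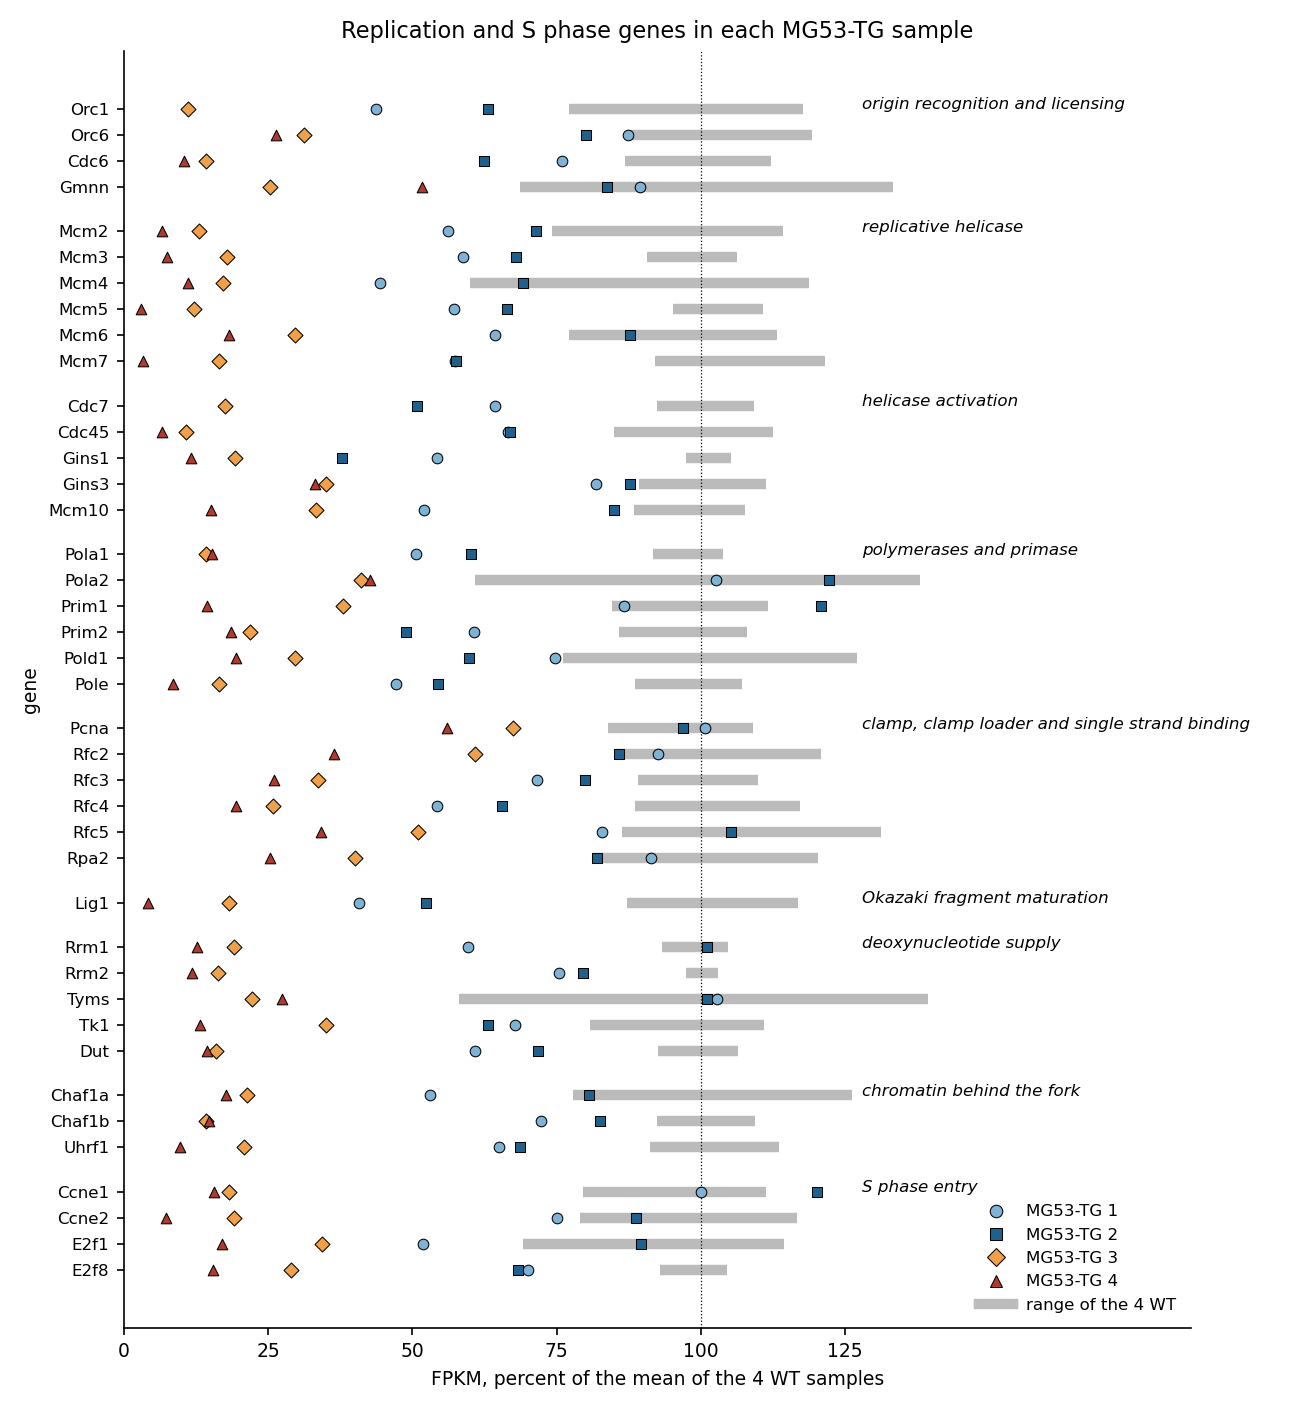
FPKM of each of the 40 genes in each MG53-TG sample (symbols), as a percent of the mean of the 4 WT samples, with the range of the WT samples as a grey bar. The values of samples 3 and 4 lie to the left of the grey bar in every row (Orc1 and Cdc7 have no value in sample 4), while those of samples 1 and 2 reach into it in some rows. Over all genes, 51.0% of those with a value in sample 3 and 52.3% of those in sample 4 lay below every WT value.

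Samples 3 and 4 stood apart over all genes too. The first principal component held 70.5% of the variance and placed the WT samples between -41.2 and -38.7, MG53-TG samples 1 and 2 at 25.5 and 23.3, and samples 3 and 4 at 52.2 and 59.2. Trim72, read by exon boundaries whatever identifier the row carried, was not listed in WT. Its end events across MG53-TG samples 1 to 4 were at 16.4, 27.4, 31.9 and 36.5 FPKM. Its start events were at 10.3, 24.5 and 22.8 FPKM in samples 1, 3 and 4 and were absent in sample 2. The presence of Trim72 thus followed the labels in all 8 samples. Without samples 3 and 4, an alternative chosen after the values were seen, 20 of the 40 genes were lower and 0 higher by limma, beside 22.2% of 10223 genes lower, and the median log2 fold change was -0.49. Of these 20 genes, 19 were also lower with all samples, and the other one was Rrm2. Mcm4, Mcm6, Mcm10, Pold1, Chaf1a, Chaf1b and E2f1 were lower only with all 8 samples. The depth of the libraries is unknown, since the files give no counts. The FPKM of all start events summed to between 269094 and 284330 per sample, with the highest sums in MG53-TG samples 3 and 4.

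The count of lower genes moved with each sample that was left out. It was 8, 9, 11 and 9 of 40 when WT sample 1, 2, 3 or 4 was left out, while 22.7%, 23.1%, 24.1% and 23.0% of all genes were lower in the same fits. It was 31, 35, 8 and 15 of 40 when MG53-TG sample 1, 2, 3 or 4 was left out, beside 30.0%, 32.4%, 22.6% and 24.2% of all genes. With a WT sample or MG53-TG sample 3 left out, the share of the 40 genes that passed was thus near that of all genes. In these 8 fits the log2 fold change stayed below 0 in 40 of 40 genes. Cdc7, Gins1, Pola1, Prim2, Pole, Rfc4 and Lig1 were lower in each of the 8 fits, and the other 19 of the 26 lost the call in at least 1 of them. The share of all genes that met the same conditions across the 8 fits was not determined.

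Among the genes of origin recognition and licensing, 2 of the 4 compared were lower, beside 29.2% of all genes. Orc1, the large ATPase subunit of the origin recognition complex (chr4:108579423-108614833, GRCm38), was at 4.41, 3.03, 3.65 and 4.63 FPKM across WT samples 1 to 4 and at 1.72, 2.48 and 0.436 FPKM across MG53-TG samples 1 to 3, and it had no entry in sample 4. It fell by 1.03 ± 0.30 (SE) on the log2 scale (adjusted p = 0.0237 by limma), with that sample left out of the fit as missing. With the replicate number as a block its adjusted p by limma was 0.0614, and the call was lost. The values in the 3 MG53-TG samples were below each WT value. Cdc6 (chr11:98907801-98923940), the ATPase that brings the helicase to the complex, was at 5.39, 6.95, 6.56 and 5.91 FPKM in the WT and at 4.71, 3.87, 0.882 and 0.643 FPKM in the MG53-TG samples. It showed the largest difference of the group in this fit, with a log2 fold change of -1.24 ± 0.40 (adjusted p = 0.0321 by limma), and MG53-TG samples 3 and 4 were under 1 FPKM. With absent entries as 0 the log2 fold change of Orc1 was larger, at -1.35.

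Orc6, the smallest subunit of the origin recognition complex, and Gmnn, which encodes geminin, the inhibitor of Cdt1, did not pass. Orc6 was at 15.5, 13.3, 13.7 and 18.1 FPKM in WT and at 13.3, 12.2, 4.75 and 4.01 FPKM in MG53-TG, with a log2 fold change of -0.91 ± 0.34 (adjusted p = 0.0588 by limma). All 4 MG53-TG values were below the WT values, sample 1 by less than the rounding shows, and samples 3 and 4 were well below. Gmnn was at 23.4, 38.0, 33.2 and 19.6 FPKM in WT and 25.5, 23.9, 7.24 and 14.7 FPKM in MG53-TG, and its log2 fold change was -0.74 ± 0.37 (adjusted p = 0.136 by limma). The first 2 MG53-TG samples lay within the WT range, and Gmnn was the gene of this group with the smallest difference.

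The replicative helicase was lower in each of its 6 subunits, beside 29.2% of all genes, with a median log2 fold change of -1.75. The subunits form a ring that unwinds the DNA ahead of the fork. In WT their levels in FPKM, which are per length of transcript, ran from 24.9 ± 4.40 (SD, n = 4) for Mcm2 to 49.8 ± 7.17 for Mcm7. The promoters of 5 subunits and that of Pcna are printed to set the words for E2F and for the CCAAT-binding factor NF-Y in the role with the largest median difference among those with more than 1 gene beside those in the gene with the smallest difference. Mcm4 had no entry in the table of promoters. The sequences are from RefSeq on GRCm38.p6, 5′ to 3′ on the strand of the gene, from 250 bases before to 50 bases after a RefSeq start, with E2F and CCAAT words of either strand in capitals. The windows are chr6:88898731-88899030 (minus strand) for Mcm2, chr1:20820263-20820562 (minus) for Mcm3, chr8:75109259-75109558 (plus) for Mcm5, chr1:128359656-128359955 (minus) for Mcm6, chr5:138171834-138172133 (minus) for the upstream window of Mcm7 and chr2:132253131-132253430 (minus) for Pcna.
Mcm2: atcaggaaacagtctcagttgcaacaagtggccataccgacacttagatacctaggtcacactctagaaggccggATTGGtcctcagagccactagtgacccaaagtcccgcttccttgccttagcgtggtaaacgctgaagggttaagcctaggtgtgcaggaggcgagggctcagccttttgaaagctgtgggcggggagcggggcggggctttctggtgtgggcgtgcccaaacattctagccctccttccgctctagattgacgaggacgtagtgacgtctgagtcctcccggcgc
Mcm3: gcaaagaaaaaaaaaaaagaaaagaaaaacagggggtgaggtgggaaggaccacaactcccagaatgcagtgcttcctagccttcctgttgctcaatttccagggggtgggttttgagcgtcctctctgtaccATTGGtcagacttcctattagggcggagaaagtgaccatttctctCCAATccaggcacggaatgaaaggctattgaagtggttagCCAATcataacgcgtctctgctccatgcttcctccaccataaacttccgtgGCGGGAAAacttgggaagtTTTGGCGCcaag
Mcm5: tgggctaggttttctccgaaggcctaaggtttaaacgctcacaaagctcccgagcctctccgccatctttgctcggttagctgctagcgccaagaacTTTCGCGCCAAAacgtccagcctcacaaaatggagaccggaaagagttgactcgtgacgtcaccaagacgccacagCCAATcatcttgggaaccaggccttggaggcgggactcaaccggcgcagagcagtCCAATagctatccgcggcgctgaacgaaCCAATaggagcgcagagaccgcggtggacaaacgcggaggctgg
Mcm6: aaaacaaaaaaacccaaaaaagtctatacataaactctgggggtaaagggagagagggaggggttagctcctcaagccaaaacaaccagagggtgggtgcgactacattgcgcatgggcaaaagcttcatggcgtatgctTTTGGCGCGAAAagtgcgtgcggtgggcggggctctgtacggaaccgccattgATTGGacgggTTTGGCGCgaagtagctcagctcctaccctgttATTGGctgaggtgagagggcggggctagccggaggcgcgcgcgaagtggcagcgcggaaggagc
Mcm7: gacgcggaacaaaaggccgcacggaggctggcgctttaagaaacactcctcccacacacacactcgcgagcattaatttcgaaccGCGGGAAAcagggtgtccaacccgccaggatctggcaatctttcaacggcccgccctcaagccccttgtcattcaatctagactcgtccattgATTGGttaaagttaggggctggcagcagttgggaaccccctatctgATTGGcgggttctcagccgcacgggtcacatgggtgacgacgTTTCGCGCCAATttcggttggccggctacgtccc
Pcna: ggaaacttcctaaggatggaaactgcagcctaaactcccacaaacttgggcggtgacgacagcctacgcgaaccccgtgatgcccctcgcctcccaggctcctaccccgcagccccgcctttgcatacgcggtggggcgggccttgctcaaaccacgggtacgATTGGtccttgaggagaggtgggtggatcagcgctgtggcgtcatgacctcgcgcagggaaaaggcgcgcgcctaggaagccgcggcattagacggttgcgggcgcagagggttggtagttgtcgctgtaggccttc

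The E2F words were TTTGGCGC, TTTCGCGC, TTTCCCGC and TTTGCCGC, and CCAAT was searched as its 5 letters, each on both strands. The main deposited start lay within the printed window for Mcm6 and Pcna and outside it for Mcm2, Mcm3, Mcm5 and Mcm7. Mcm3, Mcm5 and Mcm7 held 2 E2F words and 3 CCAAT words each, and Mcm6 held 3 and 2. A second RefSeq window of Mcm7, chr5:138171217-138171516, which is not printed, held no E2F word and 1 CCAAT word. Mcm2 and Pcna held no E2F word and 1 CCAAT word each in these windows. In Mcm5 and Mcm6 a pair of E2F words on opposite strands overlapped, and in Mcm7 an E2F word overlapped a CCAAT word. A match describes letters and is not a measured site.

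Mcm7 (chr5:138164583-138172422) showed the largest difference of the 40 genes on the log2(FPKM + 1) scale. With a pseudocount of 0.1 the log2 fold change was -2.32 for Mcm5, -2.27 for Lig1 and -2.24 for Mcm7, so the order depends on the scale, and the call of Mcm5 was lost in that setting (adjusted p = 0.0541 by limma). Mcm7 was at 47.0, 45.8, 60.5 and 45.9 FPKM across WT samples 1 to 4 and at 28.6, 28.7, 8.18 and 1.69 FPKM across MG53-TG samples 1 to 4. It fell by 2.06 ± 0.69 (SE) on the log2 scale (adjusted p = 0.0385 by limma), and the MG53-TG mean was 33.7% of the WT mean. The reads of Mcm7 may include those of Ap4m1 and Cops6, which have exons on the opposite strand, since whether the libraries keep the strand is not stated. Mcm5 (chr8:75109569-75128439) was at 29.6, 25.4, 25.7 and 26.1 FPKM in WT and 15.3, 17.8, 3.23 and 0.805 FPKM in MG53-TG. Its log2 fold change was -1.99 ± 0.67 (adjusted p = 0.0392 by limma), and MG53-TG sample 4 reached 3.01% of the WT mean, the lowest of any gene and sample.

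Mcm2 (chr6:88883474-88898780) was at 26.5, 28.5, 18.5 and 26.3 FPKM in WT and 14.0, 17.8, 3.26 and 1.64 FPKM in MG53-TG, a log2 fold change of -1.77 ± 0.58 (adjusted p = 0.0359 by limma). Mcm3 (chr1:20802968-20820312) was at 39.5, 40.5, 34.6 and 37.9 FPKM in WT and 22.4, 25.9, 6.85 and 2.86 FPKM in MG53-TG, a log2 fold change of -1.73 ± 0.56 (adjusted p = 0.0326 by limma). In both genes the groups did not overlap, and MG53-TG sample 2 was the nearest to the WT values.

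Mcm4 and Mcm6 overlapped the WT range. Mcm4 (chr16:15623897-15637400) was at 31.7, 16.0, 28.4 and 30.5 FPKM in WT and 11.8, 18.4, 4.59 and 2.95 FPKM in MG53-TG, so that WT sample 2 lay between the MG53-TG samples. Its log2 fold change was -1.64 ± 0.48 (adjusted p = 0.0229 by limma, exact permutation p = 0.0571). Mcm6 (chr1:128331590-128359664), at 52.2, 45.5, 35.6 and 51.3 FPKM in WT and 29.7, 40.5, 13.7 and 8.39 FPKM in MG53-TG, had the smallest difference of the helicase, -1.19 ± 0.42 (adjusted p = 0.0472 by limma, exact permutation p = 0.0571). Only MG53-TG sample 2 reached above a WT value. Without the filter on low values, the adjusted p by limma was 0.0542 for Mcm2, 0.0589 for Mcm5, 0.0689 for Mcm6 and 0.0579 for Mcm7, so that these calls were lost. The call of Mcm6 was also lost with a pseudocount of 0.1 (adjusted p = 0.0517 by limma), median-of-ratios scaling (0.0619), start events only (0.0501) and end events only (0.0528). The median of the 6 subunits was 57.3%, 68.6%, 16.8% and 7.04% of the WT mean in MG53-TG samples 1 to 4.

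**Figure D2:**
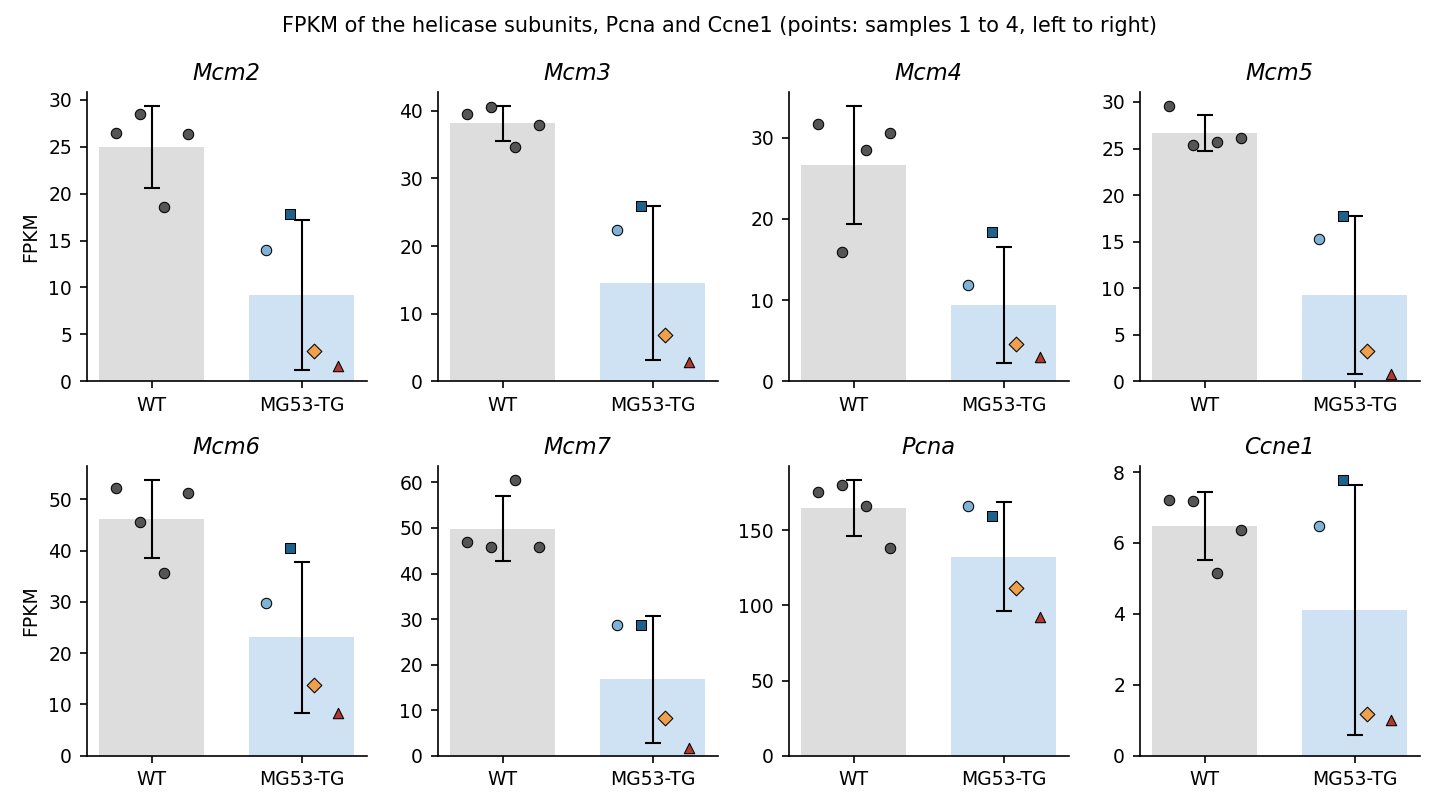
FPKM of Mcm2 to Mcm7, Pcna and Ccne1, with bars for the mean, error bars for the SD over 4 samples and 1 point per sample in the order 1 to 4. MG53-TG samples 3 and 4 are the lowest points in each panel, and in Pcna and Ccne1 samples 1 and 2 lie within or above the WT points.

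Of the genes that switch the helicase on, 4 of the 5 compared were lower, beside 29.2% of all genes, and in 5 of 5 the groups did not overlap, beside 29.1%. Cdc45 (chr16:18780447-18811987), the helicase cofactor that travels with the fork, was at 12.8, 12.4, 9.65 and 10.6 FPKM in WT and 7.57, 7.61, 1.23 and 0.758 FPKM in MG53-TG. It fell by 1.58 ± 0.52 on the log2 scale (adjusted p = 0.0359 by limma), the largest difference of this group on the log2(FPKM + 1) scale. Its value came from end events, and from start events alone the log2 fold change was -0.59 (adjusted p = 0.537 by limma). Without the filter on low values the adjusted p by limma was 0.0543, and the call was lost. Ufd1 has exons on its opposite strand. Gins3, a subunit of the GINS complex, was at 3.11, 2.50, 2.77 and 2.81 FPKM in WT and 2.29, 2.46, 0.982 and 0.929 FPKM in MG53-TG, with a log2 fold change of -0.56 ± 0.21 (adjusted p = 0.0594 by limma). Its partner Gins1 fell by 1.52 ± 0.29 (adjusted p = 0.00360 by limma), with 8.88 ± 0.316 FPKM (SD, n = 4) in WT and 2.73 ± 1.70 FPKM in MG53-TG. As a share of the WT mean Gins1 was the lowest of this group, at 30.8% beside 37.8% for Cdc45. Gins4, a GINS subunit on the list of other replication genes, fell by 0.60 (adjusted p = 0.0303 by limma). Hence the 3 measured GINS subunits were below the WT values in each MG53-TG sample, and Gins3 did not pass the test.

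Cdc7, the kinase that phosphorylates the helicase, was at 5.31, 5.10, 4.55 and 4.49 FPKM in WT and 3.13, 2.47 and 0.849 FPKM across MG53-TG samples 1 to 3. It had no start event in MG53-TG sample 4, where its end event was at 0.682 FPKM, and with that sample treated as missing it fell by 0.97 ± 0.26 (adjusted p = 0.0191 by limma). Mcm10, which joins the helicase to the polymerase, fell by 1.12 ± 0.35 (adjusted p = 0.0287 by limma), and its MG53-TG mean was 46.4% of the WT mean.

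Among the polymerases and the primase, 4 of the 6 genes were lower, beside 29.2% of all genes, and the subunits of one enzyme differed in their values. Polymerase alpha and primase form one complex, which lays down RNA and DNA primers. Pola1, its catalytic subunit, was at 35.1% of the WT mean and Prim2, the large primase subunit, at 37.5%, with log2 fold changes of -1.41 ± 0.34 and -1.31 ± 0.28 (adjusted p = 0.00933 and 0.00620 by limma). The other subunits, Pola2 and Prim1, did not pass. Pola2 was at 16.3, 11.8, 7.20 and 12.0 FPKM in WT and 12.1, 14.5, 4.87 and 5.05 FPKM in MG53-TG, a log2 fold change of -0.43 ± 0.36 (adjusted p = 0.364 by limma). Prim1 was at 14.7, 14.6, 12.2 and 11.1 FPKM in WT and 11.4, 15.9, 4.98 and 1.90 FPKM in MG53-TG, a log2 fold change of -0.86 ± 0.48 (adjusted p = 0.177 by limma). In both genes MG53-TG samples 1 and 2 lay within the WT range or above it, and samples 3 and 4 lay below it. The difference between the subunits was not tested.

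Pole (chr5:110286306-110337474), the catalytic subunit of the leading strand polymerase epsilon, showed the largest difference among the polymerases. It was at 8.44, 8.92, 7.38 and 8.57 FPKM in WT and 3.93, 4.54, 1.38 and 0.708 FPKM in MG53-TG, with no overlap. Its log2 fold change was -1.52 ± 0.35 (adjusted p = 0.00832 by limma). Pold1, the catalytic subunit of the lagging strand polymerase delta, fell by 1.10 ± 0.34 (adjusted p = 0.0286 by limma), with 11.4 ± 2.81 FPKM (SD, n = 4) in WT and 5.25 ± 2.95 FPKM in MG53-TG.

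The clamp, its loader and the single strand binding protein had the smallest median difference of the roles, a log2 fold change of -0.69. Of these 6 genes 2 were lower, a share near the 29.2% of all genes. The median of the group was 87.1%, 83.9%, 45.5% and 30.1% of the WT mean in MG53-TG samples 1 to 4. Pcna (chr2:132249162-132253314), the sliding clamp, was the most abundant of the genes compared at 175, 180, 166 and 138 FPKM in WT and 166, 160, 111 and 92.4 FPKM in MG53-TG. Its log2 fold change of -0.35 ± 0.19 did not pass (adjusted p = 0.167 by limma), and without MG53-TG samples 3 and 4 it was -0.01. Reads of Pcna and of its processed pseudogenes may not have been told apart. MG53-TG samples 1 and 2 lay within the WT range and the other 2 below it.

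The clamp loader subunits spread from 41.3% of the WT mean for Rfc4 to 68.9% for Rfc2. Rfc4 (chr16:23113943-23127737) was at 23.1, 18.8, 17.5 and 19.4 FPKM in WT and 10.7, 12.9, 5.09 and 3.84 FPKM in MG53-TG, and it fell by 1.31 ± 0.32 on the log2 scale (adjusted p = 0.0105 by limma). Its groups did not overlap, and Eif4a2 has exons on its opposite strand. Rfc3 fell by 0.97 ± 0.31 (adjusted p = 0.0305 by limma). Rfc2, with 9.58, 7.44, 6.76 and 7.92 FPKM in WT and 7.33, 6.80, 4.82 and 2.89 FPKM in MG53-TG, had a log2 fold change of -0.52 ± 0.24 (adjusted p = 0.105 by limma). Rfc5, with 11.7, 8.53, 7.68 and 7.69 FPKM in WT and 7.37, 9.36, 4.53 and 3.04 FPKM in MG53-TG, had one of -0.56 ± 0.29 (adjusted p = 0.141 by limma). Rfc2 overlapped the WT range in MG53-TG samples 1 and 2, and Rfc5 in sample 2. Rpa2, the middle subunit of the protein that coats single stranded DNA, was at 12.6, 13.1, 18.6 and 17.6 FPKM in WT and 14.2, 12.7, 6.20 and 3.94 FPKM in MG53-TG, a log2 fold change of -0.81 ± 0.35 that did not pass (adjusted p = 0.0851 by limma).

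Lig1 (chr7:13277283-13311433), the ligase that seals Okazaki fragments, was second to Mcm7 on the log2(FPKM + 1) scale, and its MG53-TG mean of 28.9% of the WT mean was the lowest of the 40 genes. It was at 31.5, 26.7, 23.5 and 26.1 FPKM in WT and 11.0, 14.1, 4.93 and 1.13 FPKM in MG53-TG, with no overlap. It fell by 2.01 ± 0.53 on the log2 scale (adjusted p = 0.0153 by limma). Without MG53-TG samples 3 and 4 its log2 fold change was -1.05 (adjusted p = 0.00240 by limma), the largest of the genes compared in that fit. Zswim9 has exons on the opposite strand of Lig1.

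Among the genes of deoxynucleotide supply, Tk1 and Dut were lower and the other 3 did not pass, beside 29.2% of all genes lower. Dut, the enzyme that keeps uracil out of DNA, was at 55.7, 52.6, 48.4 and 52.5 FPKM in WT and 31.9, 37.6, 8.38 and 7.51 FPKM in MG53-TG, a log2 fold change of -1.58 ± 0.48 (adjusted p = 0.0273 by limma). Tk1, thymidine kinase, was at 30.1, 27.0, 22.2 and 30.4 FPKM in WT and 18.6, 17.3, 9.62 and 3.62 FPKM in MG53-TG, a log2 fold change of -1.29 ± 0.41 (adjusted p = 0.0321 by limma). Neither gene overlapped between the groups, and Afmid has exons on the opposite strand of Tk1.

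Ribonucleotide reductase makes deoxynucleotides from a large subunit, Rrm1, and a small one, Rrm2. Rrm2 (chr12:24708241-24714146) was at 49.9, 49.0, 47.8 and 47.3 FPKM in WT and 36.6, 38.6, 7.92 and 5.73 FPKM in MG53-TG. The WT values lay close together with all MG53-TG values below them, and the log2 fold change of -1.52 ± 0.56 did not pass (adjusted p = 0.0537 by limma, exact permutation p = 0.0286). Rrm1 was at 25.2, 23.7, 26.1 and 26.6 FPKM in WT and 15.1, 25.7, 4.86 and 3.20 FPKM in MG53-TG, a log2 fold change of -1.38 ± 0.52 (adjusted p = 0.0576 by limma), and its MG53-TG sample 2 lay within the WT range. Tyms, thymidylate synthase, was at 16.1, 10.3, 6.71 and 13.1 FPKM in WT and 11.9, 11.7, 2.56 and 3.16 FPKM in MG53-TG, a log2 fold change of -0.78 ± 0.47 (adjusted p = 0.205 by limma). Its WT values ranged widely, and MG53-TG samples 1 and 2 lay among them.

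The genes of chromatin behind the fork were lower in 3 of 3, beside 29.2% of all genes. Uhrf1 (chr17:56303321-56323486), which carries DNA methylation over to the new strand, was at 39.0, 33.0, 31.3 and 34.0 FPKM in WT and 22.3, 23.6, 7.14 and 3.35 FPKM in MG53-TG. It fell by 1.56 ± 0.51 on the log2 scale (adjusted p = 0.0348 by limma, 0.0525 without the filter on low values, where the call was lost) with no overlap. Chaf1a, the large subunit of the histone chaperone CAF-1, was at 7.07, 10.7, 9.62 and 6.63 FPKM in WT and 4.52, 6.86, 1.82 and 1.51 FPKM in MG53-TG, a log2 fold change of -1.16 ± 0.36 (adjusted p = 0.0281 by limma, exact permutation p = 0.0571). Its MG53-TG sample 2 lay above the lowest WT value. Chaf1b, its partner, fell by 1.29 ± 0.46 (adjusted p = 0.0492 by limma, 0.0722 without the filter, where the call was lost), and its MG53-TG mean was 45.9% of the WT mean, close to the 43.2% of Chaf1a.

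Of the genes of S phase entry, the factors E2f1 and E2f8 were lower and the E cyclins did not pass, beside 29.2% of all genes lower. E2f8 (chr7:48866429-48881596), a repressor that E2F factors induce, was at 13.1, 13.2, 11.8 and 12.6 FPKM in WT and 8.88, 8.65, 3.68 and 1.95 FPKM in MG53-TG, and it fell by 1.18 ± 0.36 on the log2 scale (adjusted p = 0.0272 by limma). E2f1 (chr2:154559407-154569892), an activator of S phase genes, was at 5.78, 5.41, 3.49 and 5.51 FPKM in WT and 2.62, 4.52, 1.74 and 0.860 FPKM in MG53-TG, a log2 fold change of -0.91 ± 0.31 (adjusted p = 0.0401 by limma, exact permutation p = 0.0571). MG53-TG sample 2 of E2f1 lay above WT sample 3, the lowest of its group. The adjusted p of E2f1 by limma was 0.0592 without the filter, 0.0560 with median-of-ratios scaling and 0.0501 with a pseudocount of 0.1, and the call was lost in each.

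Ccne1 and Ccne2 encode the cyclins that activate Cdk2 at the start of S phase. Ccne1 was at 7.20, 7.18, 5.15 and 6.36 FPKM in WT and 6.47, 7.77, 1.18 and 1.01 FPKM in MG53-TG, a log2 fold change of -0.85 ± 0.48 (adjusted p = 0.180 by limma). The first 2 MG53-TG samples were as high as the WT samples, and the other 2 were far below them. Ccne2 was at 6.32, 6.65, 4.51 and 5.31 FPKM in WT and 4.28, 5.06, 1.09 and 0.414 FPKM in MG53-TG, a log2 fold change of -1.09 ± 0.44 (adjusted p = 0.0718 by limma). Its MG53-TG sample 2 lay above the lowest WT value, and Ints8 has exons on its opposite strand. In all, 13 of the 40 genes share exon sequence with a gene on the other strand, namely Orc1, Orc6, Mcm7, Cdc45, Pole, Rfc2, Rfc4, Rfc5, Lig1, Tk1, Chaf1a, Ccne2 and E2f8, and their values are uncertain to that extent.

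**Figure D3:**
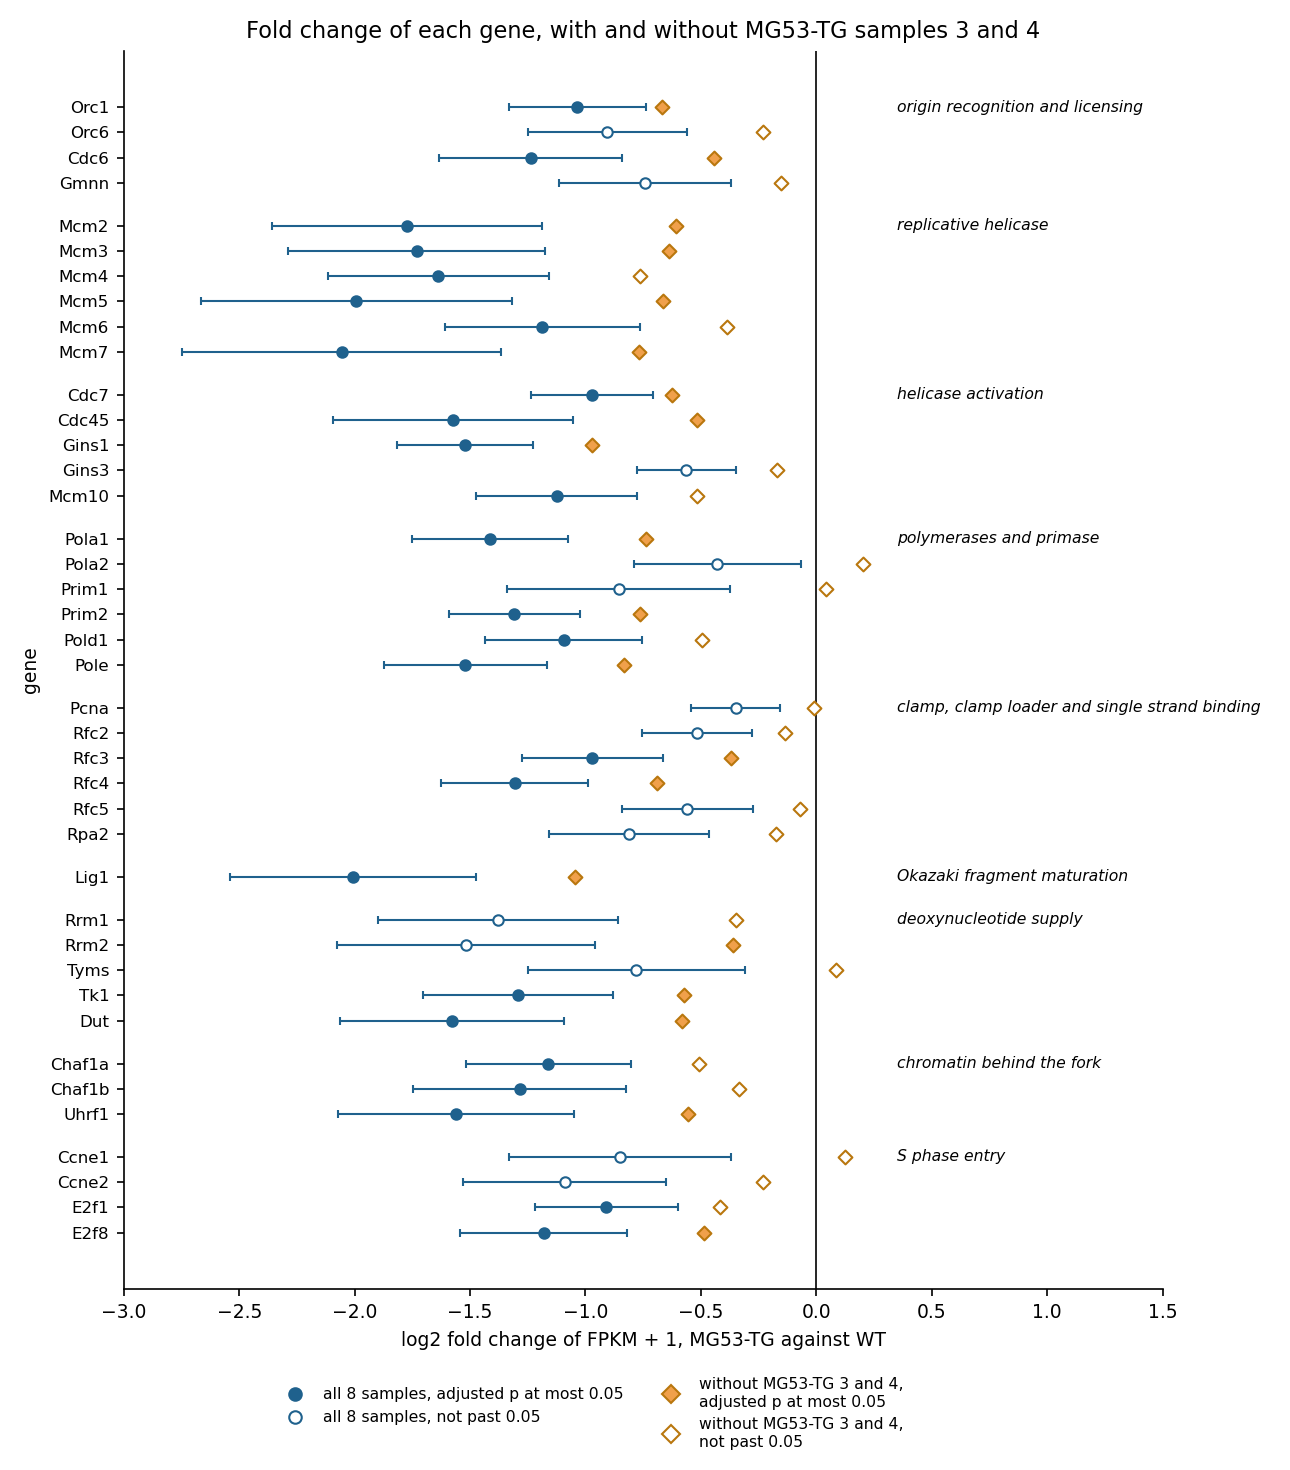
Log2 fold change of FPKM + 1 between MG53-TG and WT for the 40 genes by role, with all 8 samples (circles, bars for the SE) and without MG53-TG samples 3 and 4 (diamonds), filled where limma's adjusted p was at most 0.05. All circles lie left of 0, and without the 2 samples Pola2, Prim1, Tyms and Ccne1 lie right of 0.

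The genes also differed in how their transcripts began. Cdc45 had a start event in 2 of the 8 samples only and was left out of this count. Of the other 39 genes compared, 28 drew over 90% of the start FPKM from 1 start event in both groups. Mcm7 had 5 start events, of which the main one held 72.7% ± 11.4 (SD, n = 4) of the start FPKM in WT and 70.7% ± 4.9 in MG53-TG. E2f1 had 2, of which the main one held 79.3% ± 3.9 in WT and 74.0%, 72.1%, 24.5% and 41.6% in MG53-TG samples 1 to 4. The share was thus below the WT range of 74.7% to 83.9% in each MG53-TG sample, at levels of a few FPKM, and it was not tested. Uhrf1 had 51.0% ± 3.1 at its main start in WT and 56.5% ± 15.5 in MG53-TG.

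A RefSeq promoter was on hand for 35 of the 43 genes, and the main deposited start lay within a promoter window for 25 of the 34 with a start event. An E2F word was present in 13 of the 35 genes (37.1%), in 4.95% of the 8185 tested genes with a promoter and in 2.26% of all 32851 promoters. The 13 genes were Mcm3, Mcm5, Mcm6, Mcm7, Orc1, Cdc6, Cdt1, Gins3, Pola1, Pold1, Rfc3, Lig1 and Uhrf1. CCAAT was present in 57.1% of the genes and in 43.9% of the tested genes. The words TTTGAA and TTCGAA, known as the CHR element of late cell cycle genes, were present in 22.9% and 16.7%, so that this share was close to that of the tested genes. Of the 12 compared genes with an E2F word, 11 were lower, with a median log2 fold change of -1.33, and of the 21 without one 11 were lower, with a median of -1.12. Over all tested genes 33.3% of those with the word and 28.7% of those without were lower. This split was made after the values were seen, and it was not tested.

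Other genes of replication, G1/S control and mitosis were read from lists. Of 50 other replication genes, 47 were tested and 23 were lower, 0 were higher and 24 did not pass, with a median log2 fold change of -0.88, beside 29.2% of all genes lower. The largest falls were in Cdca7, a chromatin factor, and Dbf4, the activating subunit of the Cdc7 kinase. Cdca7 was at 48.5 ± 5.24 FPKM (SD, n = 4) in WT and 16.0 ± 10.7 FPKM in MG53-TG, and it fell by 1.80 on the log2 scale (adjusted p = 0.0109 by limma). Dbf4 was at 24.7 ± 2.24 FPKM in WT and 7.75 ± 4.72 FPKM in MG53-TG, and it fell by 1.75 (adjusted p = 0.00721 by limma). The median of the list was 71.3%, 77.8%, 33.4% and 31.3% of the WT mean in MG53-TG samples 1 to 4, and samples 3 and 4 held the lowest 2 of the 8 values in 34 of the 45 genes with every value.

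Of 32 G1/S control genes, 30 were tested and 14 were lower, 0 were higher and 16 did not pass, with a median of -0.65, beside 29.2% of all genes lower and a median of -0.17. Ccna2, the cyclin of S phase and G2, fell by 1.88 (adjusted p = 0.00387 by limma), and Mybl2, a factor of late cell cycle transcription, by 1.69 (adjusted p = 0.00759 by limma). The median of the list was 80.3%, 86.6%, 47.9% and 42.9% of the WT mean in MG53-TG samples 1 to 4, and samples 3 and 4 held the lowest 2 values in 20 of 30 genes. The list held 7 inhibitors of cyclin-dependent kinases, singled out after their values were seen, of which 5 were tested, 2 were lower and 0 were higher, a share near that of all genes. Cdkn1b fell by 0.43 (adjusted p = 0.00746 by limma) and Cdkn2c by 0.55 (adjusted p = 0.0485 by limma). Cdkn1a, Cdkn1c and Cdkn2d did not pass, and Cdkn2a and Cdkn2b had no entry.

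Of 28 mitosis genes, 26 were tested and 23 were lower, 0 were higher and 3 did not pass, with a median of -1.55, beside the same 29.2%. Ube2c, a ubiquitin-conjugating enzyme that works with the anaphase-promoting complex, was at 137 ± 0.457 FPKM in WT and 42.8 ± 24.6 FPKM in MG53-TG. It fell by 1.88 (adjusted p = 0.00698 by limma). Mki67, the gene of the Ki-67 antigen, fell by 1.84 (adjusted p = 0.0107 by limma). In MG53-TG samples 1 and 2 the mitosis genes were at a median of 52.3% and 54.2% of the WT mean, below the 65.8% and 75.7% of the replication genes, and in samples 3 and 4 they were at 24.0% and 12.2%. Samples 3 and 4 held the lowest 2 values in 25 of 26 mitosis genes. The difference between these lists was not tested.

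**Figure D4:**
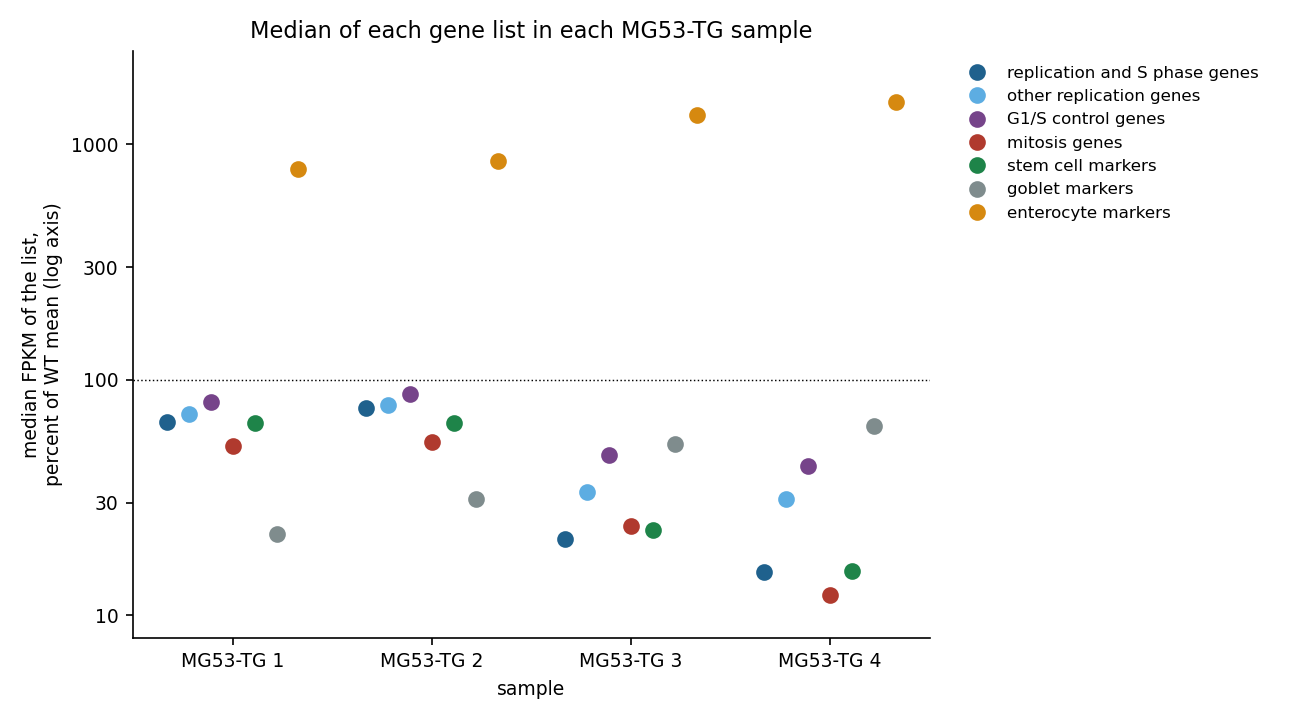
Median FPKM of 7 gene lists in each MG53-TG sample, as a percent of the WT mean on a log axis, with the WT mean as a dotted line. The replication and S phase genes lie at 65.8%, 75.7%, 21.1% and 15.2% in samples 1 to 4 and the stem cell markers at 65.4%, 65.6%, 22.9% and 15.4%, while the enterocyte markers lie at 783% or more of the WT mean in each sample.

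Markers of cell types differed in level as well. Epithelial markers were present in both groups, as Epcam was at 438 ± 38.4 FPKM in WT and 443 ± 43.7 FPKM in MG53-TG. Of 9 epithelial markers, 6 were lower and 1 was higher, beside 29.2% and 15.5% of all genes. The log2 fold changes were -1.11 for Krt18, -0.80 for Cdh1 and 1.10 for Vil1. Krt19 had the largest of the list, 1.26, and did not pass (adjusted p = 0.0692 by limma). Of 10 stem cell markers, which include Cdca7, 6 were lower and 0 higher, beside 29.2% and 15.5% of all genes, led by Olfm4 and Axin2. Olfm4 fell by 4.01 ± 0.99 (adjusted p = 0.0112 by limma) and Axin2 by 2.54 ± 0.43 (adjusted p = 0.00190 by limma). Lgr5, which marks crypt base stem cells and was singled out after its values were seen, was at 8.87, 6.34, 5.73 and 21.7 FPKM in WT and 11.4, 14.6, 2.47 and 3.67 FPKM in MG53-TG and did not pass (adjusted p = 0.530 by limma). The stem cell markers had sums of 542 to 725 FPKM in WT and 69.5 to 340 FPKM in MG53-TG, and their median was 65.4%, 65.6%, 22.9% and 15.4% of the WT mean in MG53-TG samples 1 to 4. Of 12 enterocyte markers, 12 were higher, beside 15.5% of all genes, led by Fabp1 and Apoa4, which carry fatty acids and lipids. Fabp1 had a log2 fold change of 4.51 ± 0.11 (adjusted p = 8.33e-08 by limma) and Apoa4 one of 4.33 ± 0.19 (adjusted p = 1.38e-06 by limma). The enterocyte markers had sums of 894 to 1073 FPKM in WT and 11503 to 12713 FPKM in MG53-TG, and their median was 783%, 852%, 1328% and 1518% of the WT mean. Of the secretory markers tested, 4 of 6 goblet genes were lower, 3 of 5 Paneth genes were lower and 2 higher, and 3 of 6 enteroendocrine genes were higher, beside 29.2% of all genes lower and 15.5% higher. The largest log2 fold changes were -2.66 for Agr2 and -1.55 for Muc2 among goblet genes past the threshold, -2.99 for Mmp7, -1.50 for Itln1, 3.27 for Pnliprp2 and 2.76 for Reg3g among Paneth genes, and 1.39 for Chgb and 1.38 for Tac1 among enteroendocrine genes. Zg16, a goblet gene, had a log2 fold change of 1.33 that did not pass (adjusted p = 0.117 by limma). The goblet markers were at a median of 22.1%, 31.1%, 53.2% and 63.9% of the WT mean in MG53-TG samples 1 to 4, so that samples 3 and 4 were the higher ones here. Of the tuft genes, 0 reached the filter. Mesenchymal markers summed to 1.80 to 3.24 FPKM in WT and 1.31 to 5.58 FPKM in MG53-TG. Col1a2 and Col3a1 were not listed in WT or in MG53-TG sample 1 and reached at most 2.07 FPKM in the other 3 samples, and Pdgfra, Pdgfrb and Acta2 had no entry. Immune markers summed to at most 0.0913 FPKM, with Ptprc and Cd3e at or near 0. Cell numbers were not measured, and the part of these marker levels in the levels of the replication genes was not tested.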

How the data were processed

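RNA of 4 WT and 4 MG53-TG organoid samples was sequenced, and the authors deposited FPKM values per transcript event (a transcription start or end, a skipped exon and the like). The submitters' processing notes name cutadapt 1.9.1, HISAT2 2.0.1, HTSeq 0.6.1 and mm10. The tool that made the event tables is not given in the sources used here. Depth is unknown: the FPKM are estimates that do not give back whole reads, so no interval that needs counts was computed.

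Of 294831 start and end rows, 91.7% lay at an exon boundary of the named gene in GENCODE (GRCm38), and 13699 of 13706 identifiers were in the annotation. An absent entry counted as missing (492 genes) if the median of its group was 0.5 FPKM or more, and as 0 if not. The groups were compared by limma 3.58.1 (lmFit, eBayes with trend, R 4.3.3) on log2(FPKM + 1), for genes whose mean reached 0.5 FPKM, with Benjamini-Hochberg adjustment over all of them and a threshold of 0.05. The pseudocount of 1 understates the fold change of low genes. An exact permutation test, two-sided, was added for single genes. The scripts (Python 3.11.15, numpy 2.4.6, pandas 2.3.3, scipy 1.17.1, matplotlib 3.10.9) were tested on simulated data.

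The genes and lists were chosen with earlier results of these data known. Values of every sample were given for the helicase, the S phase entry genes, Pcna, Gmnn, Rrm2, Tyms, Tk1, Uhrf1, the genes with the largest and smallest difference of each role and all that did not pass, and of other lists the 2 largest falls and rises past the threshold (Col1a2 and Col3a1, listed in MG53-TG alone, as values only). The lists of goblet, Paneth, enteroendocrine and tuft markers served the check of cell type markers. The alternatives tried were a pseudocount of 0.1, no filter, a filter at 2 FPKM, 2 scalings, the replicate number as a block, start or end events only, no check of boundaries, absent entries as 0 and leaving out each sample. Boundaries alone and the omission of MG53-TG samples 3 and 4 were added after the data were seen. Tests on read counts were not run.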

Additional observations from a re-analysis of the deposited data

Results flagged for a closer look

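Of 64 groups of 4 samples tested for a sample far from the other 3, 3 held one, and chance flags about 1 in 20 groups, which is 3.2 of 64. Mcm5 in WT sample 1 was at 29.6 FPKM, above the other WT samples. Mcm7 in WT sample 3 was at 60.5 FPKM, above the other WT samples. A minor start event of Mcm7, chr5:138171188-138171266, was at 17.2 FPKM there and at 1.55, 0.0507 and 0.726 FPKM in WT samples 1, 2 and 4. The main start event of Mcm7 was at 33.9 FPKM in WT sample 3, the lowest of the WT samples. E2f1 in WT sample 3 was at 3.49 FPKM, below the other WT samples.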

How the results depend on the processing

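The depth is unknown, so counting error could not be set beside these values. The count of lower genes among the 40 ranged from 8 (without WT sample 1 or MG53-TG sample 3) to 35 (without MG53-TG sample 2) when 1 sample was left out, that of all genes differing from 3650 to 4865, that of the other replication genes from 16 to 33, that of the G1/S control genes from 11 to 17 and that of the mitosis genes from 20 to 24, and the median log2 fold change from -1.46 to -0.93. Under the settings that kept all samples the count among the 40 ran from 18 (no filter) to 27 (replicate block). Over all genes 3013 of 13081 were lower without the filter and 2739 of 10260 with the block. The median log2 fold change of the 40 genes was -1.42 (pseudocount of 0.1) to -1.01 (median-of-ratios scaling). Of 33 genes given with all their values, the call was lost for 3 with a pseudocount of 0.1, 7 without a filter, 2 with median-of-ratios scaling, 2 with start events only, 1 with end events only and 1 with the block, which gained 2. With end events only, 7 of 20 G1/S control genes were lower, with fewer genes tested, beside 2259 of 7987 genes in all. Without MG53-TG samples 3 and 4 the log2 fold change was above 0 for Pola2 (0.20), Prim1 (0.041), Tyms (0.086) and Ccne1 (0.13), none of them past the threshold in limma in either fit, and the cause was not tested. Without these samples 22 other replication genes, 11 G1/S control genes and 20 mitosis genes differed, beside 3634 of all 10223 genes, so that the share of the G1/S control genes was near that of all genes. The deviations of samples with the same number correlated at 0.0917, -0.00302, 0.0939 and -0.0505. The numbers were not read as pairs, although such correlations cannot exclude pairing. A figure legend of the study names a paired t test for marker genes of the crypt organoid transcriptome. With the replicate number as a block 4196 genes differed, among them 27 of the 40 genes and 28 other replication genes.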

Other observations

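The share of the start FPKM held by the main start ranged over more than 40 percentage points among the MG53-TG samples in 6 of 39 genes, E2f1, Cdc7, Mcm10, Tyms, Ccne2 and E2f8, a limit set after the values were seen. The main start of Mcm10 held 57.6% ± 8.8 (SD, n = 4) in WT and 53.9%, 69.2%, 0% and 0% in MG53-TG samples 1 to 4. That of Ccne2 held 80.1% ± 3.2 in WT and 89.2%, 75.4%, 89.9% and 0.0565% in MG53-TG. That of E2f8 held 63.9% ± 6.7 in WT and 54.3%, 72.4%, 26.2% and 87.0% in MG53-TG. That of Tyms held 92.8% ± 9.1 in WT and 46.7%, 100.0%, 100.0% and 100.0% in MG53-TG. That of Cdc7 held 80.9% ± 16.4 in WT and 94.8%, 47.0% and 100.0% in MG53-TG samples 1 to 3. Some of these shares rest on low levels. In MG53-TG the start events summed to 0.414 FPKM for Ccne2 in sample 4 and to 0.849 FPKM for Cdc7 in sample 3. For Mcm10 the start FPKM in sample 4 was 0.995, from its other start event. The main start event of Ccne2 and a smaller one begin at the same base, chr4:11191709, so their shares do not tell start sites apart. The shares were not tested.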
